A study of Mus musculus with 8 samples.

Results

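The nuclear genes for the subunits of the mitochondrial respiratory chain and ATP synthase were followed in JoMa1 cells, which are neural crest precursors of the mouse, and in lines from tumours that these cells formed after transfection with MYCN. Members were taken by gene symbol alone: probe sets with a single symbol that starts with Ndufa, Ndufb, Ndufc, Ndufs, Ndufv, Uqcr, Cox4, Cox5, Cox6, Cox7, Cox8 or Atp5, or that is Sdha, Sdhb, Sdhc, Sdhd, Cyc1 or Cycs, without the Ndufaf assembly factors. This gave 174 of the 45101 probe sets and 84 of the 18193 genes with a symbol of their own. Of the 84 genes, 34 belong to complex I (14 in its peripheral arm and 20 in or on its membrane arm), 4 to complex II, 10 to complex III and cytochrome c, 19 to complex IV and 17 to complex V. Probe sets that carry several symbols, 10 of them with a member's name, were left out.

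The 8 arrays, each from 1 sample, fall into 3 groups. The 4 tumour-line arrays, numbered 3 to 6 in the titles, hold lines grown from tumours of JoMa1 cells transfected with MYCN, and the labels call the tumours independent. A single array is labelled as JoMa1 transfected with a GFP control, and 3 arrays hold parental JoMa1. All groups share the JoMa1 background, in which a MYC fusion protein can be switched on with tamoxifen; the use of tamoxifen for these samples is not stated. Nothing in the labels puts the parental arrays in separate cultures, so that the p-values may in part measure technical spread.

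The respiratory chain sits in the inner mitochondrial membrane. Complexes I and II take electrons from NADH and succinate, complex III passes them to cytochrome c, complex IV hands them to oxygen, and ATP synthase, called complex V here, uses the proton gradient that results. A small core of subunits, related to those of bacteria, does the chemistry, and a larger set of accessory subunits surrounds it. A few core subunits are encoded by mitochondrial DNA and are not among the members, which all come from nuclear genes and are imported as proteins. MYC proteins are known to raise the expression of many genes of mitochondrial biogenesis.

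All levels below are log2 RMA values, in which a difference of 1 is a 2-fold change. Mycn, read with its brightest probe set, stood at 14.08 to 14.26 in tumour lines, at 11.73 in the library labelled GFP-transfected and at 7.29 to 7.49 on parental arrays. Another Mycn probe set ran the other way, at 4.53 to 4.69 in tumour lines, 4.33 in the library labelled GFP-transfected and 8.01 to 8.23 on parental arrays. In these readings the single library lay nearer to the tumour lines than to the parental arrays, which goes against its label, and each comparison with it has this limit. The remaining Mycn probe set, which is dim, read 5.90 to 6.23 in tumour lines, 5.88 in the single library and 5.64 to 5.97 on parental arrays, so that there the single library lay within the parental range. Bacterial trpnX controls, which show the floor of the scale, averaged 3.84 to 4.04, and the brightest probe set on any array read 14.95. As a sign of RNA quality, signal at the 3' end minus that at the 5' end was 0.52 to 0.61 in tumour lines and 0.63 to 0.64 on parental arrays for Actb, and 0.09 to 0.15 and 0.05 to 0.08 for Gapdh. Of 7 measured macrophage and leukocyte markers 3 were higher in tumour lines (Cd14, Cd68 and Lyz2), and the list averaged 6.35 to 6.46 in tumour lines and 5.83 to 5.99 on parental arrays. The leukocyte antigen Ptprc averaged 4.09 in tumour lines and the endothelial marker Pecam1 averaged 4.40, both close to the trpnX floor. All 4 endothelial markers together averaged 5.17 to 5.57 in tumour lines, 5.65 in the library labelled GFP-transfected and 5.15 to 5.34 on parental arrays. None of the 4 was called in tumour lines against parental cells. Of 7 muscle markers 1 was higher and 1 lower there, and of 3 measured adipocyte markers 0 were higher and 1 lower. Of 8 neural crest markers, Snai2, Pax3 and Twist1 were clearly above the floor in all groups. Foxd3 averaged 4.68 in tumour lines, 4.56 in the library labelled GFP-transfected and 4.59 on parental arrays. The remaining markers of this list are not described singly, so the named ones do not stand for the whole list. All 8 together averaged 7.72 to 7.999 in tumour lines, 7.50 in the library labelled GFP-transfected and 7.77 to 7.82 on parental arrays. Over all 8, 1 was higher and 1 lower in tumour lines against parental cells (adjusted p under 0.05 in limma), with a median difference of 0.09. Whether the cells kept a neural crest identity was not tested. The part of RNA quality and of other cells in the results below was not tested.

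The subunit genes changed little in size. No member differed by 2-fold or more in tumour lines against parental cells, and the differences ran from -0.86 to 0.58. Among all genes, 8.85% were called with a change of at least 2-fold, and 11.9% of those above the median level. Those genes are not matched to the members in brightness: 52 members read above 12 and 73 above 10 on every array. The part of this brightness in the small size of the differences was not tested. At an adjusted p under 0.05 in limma, 9 of the 84 members rose and 21 fell. Over all 18193 genes 36.0% were called in either direction, 16.6% higher and 19.4% lower, so that the total of 30 members (35.7%) lies near the background. The median difference was -0.04 for the members and 0.01 for all genes. All tumour lines lay below all parental arrays for 30 members and above them for 16, where 23.2% and 21.2% of all genes did so.

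**Figure D1:**
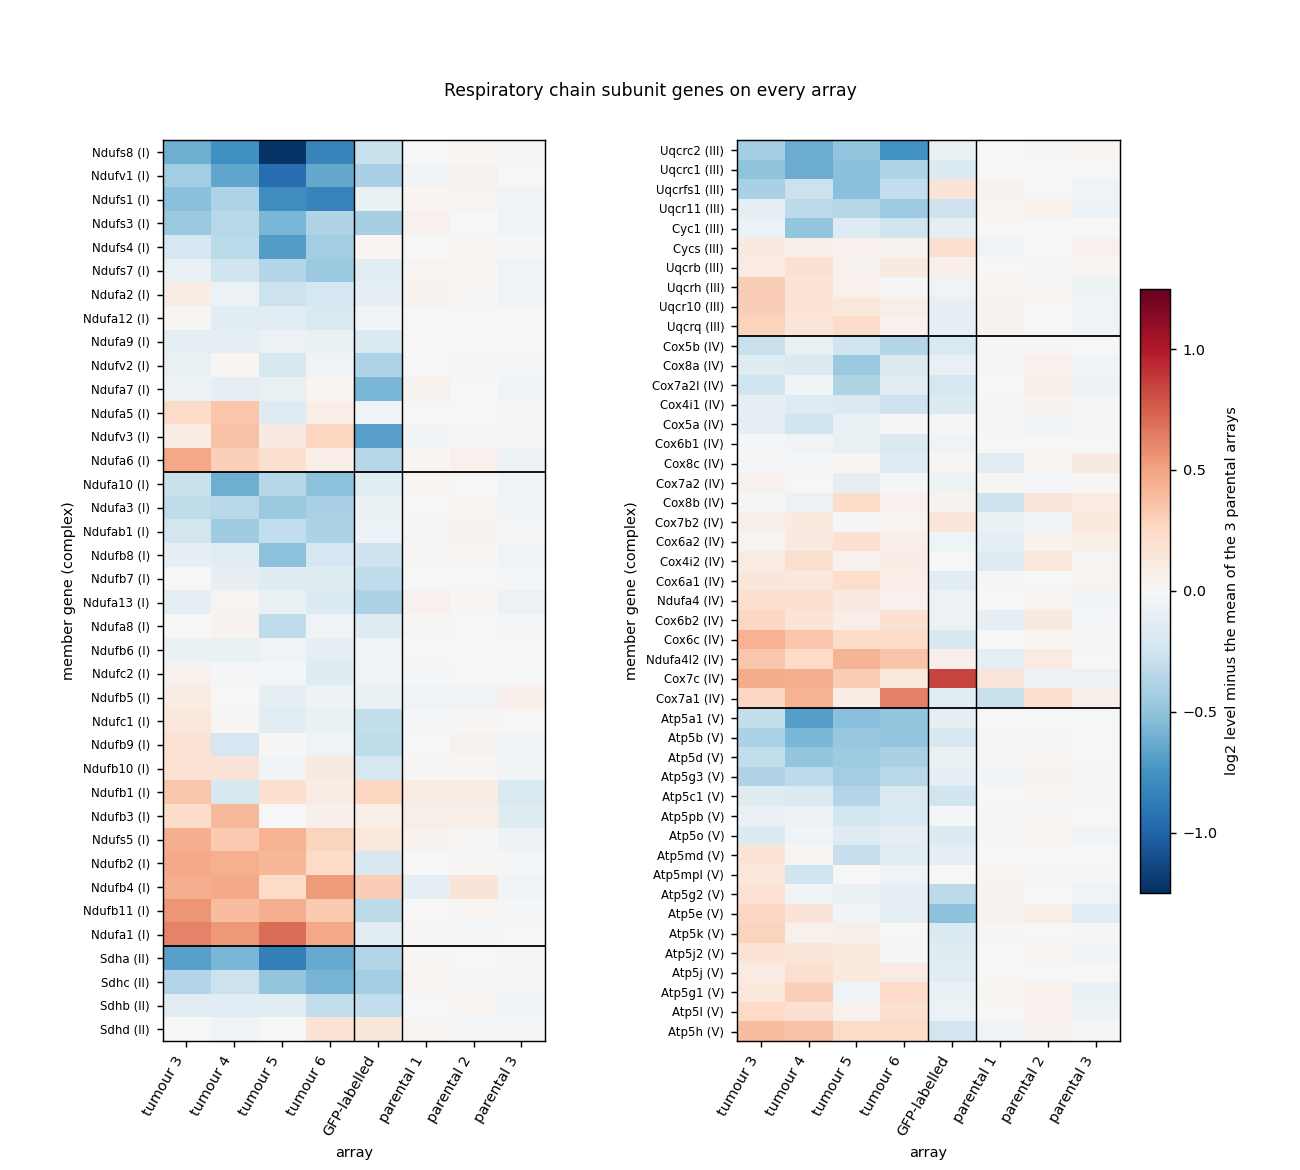
Level of each of the 84 member genes on every array, as the log2 value minus the mean of the 3 parental arrays (colour scale), with the genes grouped by complex and ordered by the tumour-line difference. Tumour lines 3 to 6 are on the left, then the library labelled GFP-transfected and the parental arrays; Ndufs8 at the top of complex I and Sdha at the top of complex II are lower in all 4 tumour lines, and Ndufa1 and Ndufb11 are higher.

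In the peripheral arm, which holds the NADH-binding flavin site and the chain of iron-sulphur clusters, 0 of 14 genes rose and 6 fell. Ndufs8, which carries a pair of iron-sulphur clusters close to the quinone site, had the largest fall of all members. It read 12.67, 12.52, 12.06 and 12.45 in tumour lines 3, 4, 5 and 6, 13.01 in the library labelled GFP-transfected and 13.28, 13.31 and 13.27 on the parental arrays. All tumour lines were lower than every parental array, and line 5 was the lowest (difference -0.86, SE 0.13, 1.81-fold, adjusted p = 0.0012). Ndufv1, the subunit that binds NADH and flavin, read 11.88, 11.66, 11.36 and 11.68 in the tumour lines, 11.90 in the library labelled GFP-transfected and 12.27, 12.35 and 12.31 in parental cells (-0.67, SE 0.11, adjusted p = 0.002). Line 5 was again the lowest. Ndufs1, the largest subunit of this arm and the carrier of several clusters in the electron path, read 10.79, 10.92, 10.53 and 10.47 in tumour lines, 11.22 in the library labelled GFP-transfected and 11.33, 11.34 and 11.25 in parental cells (-0.63, SE 0.11, adjusted p = 0.0028). The groups did not overlap.

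The other falls in the peripheral arm were smaller. The core subunit gene Ndufs3 differed by -0.44 (SE 0.08, adjusted p = 0.0022), the accessory subunit gene Ndufs4, mutated in Leigh syndrome, by -0.42 (SE 0.11, adjusted p = 0.0192) and the cluster-carrying Ndufs7 by -0.29 (SE 0.10, adjusted p = 0.0469). Of the 7 fits that left out 1 array, the fall of Ndufs7 was lost in 6 (all but that without tumour line 3, highest adjusted p 0.139) and that of Ndufs4 in the 3 without a parental array (highest adjusted p 0.0675). Ndufv2, the remaining iron-sulphur subunit measured in this arm, averaged 12.91 ± 0.09 in 4 tumour lines and 12.98 ± 0.01 on 3 parental arrays (SD) and was not called (-0.08, adjusted p = 0.475). The accessory genes Ndufa6 (0.27), Ndufv3 (0.21) and Ndufa5 (0.13) had positive differences that did not pass the test. Ndufa2, Ndufa7, Ndufa9 and Ndufa12 differed by -0.12 to -0.06 without a call.

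In the membrane arm, whose accessory subunits frame the proton-pumping core, 5 of 20 genes rose and 3 fell. Ndufa1, a small single-helix subunit needed for assembly, rose most of all members. It read 13.48, 13.40, 13.55 and 13.33 in the tumour lines, 12.72 in the library labelled GFP-transfected and 12.88, 12.83 and 12.86 on parental arrays (0.58, SE 0.07, adjusted p = 0.000404). Ndufb11 read 13.59, 13.42, 13.49 and 13.36 in tumour lines, 12.71 in the library labelled GFP-transfected and 13.03, 13.06 and 13.01 in parental cells (0.43, SE 0.07, adjusted p = 0.002). For both genes, which lie on the X chromosome in RefSeq (assembly GRCm38.p6), all tumour lines were above all other arrays, while the median of the 271 X-linked genes above the median level differed by only 0.01 to 0.08 in the tumour lines. Ndufb2 (0.39, SE 0.08), Ndufs5 (0.37, SE 0.07) and Ndufb4 (0.42, SE 0.10) rose as well. The probe set of Ndufb4 was dim, at 5.34 ± 0.14 in 4 tumour lines and 4.92 ± 0.14 on 3 parental arrays (SD), and other probe sets that list Ndufb4 with related sequences were not used. Its call was lost without parental array 1 (highest adjusted p 0.0543).

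Ndufa10 (-0.44, SE 0.09), Ndufa3 (-0.38, SE 0.07) and Ndufab1 (-0.34, SE 0.07) fell. Ndufab1 is the mitochondrial acyl carrier protein, which is part of complex I and also serves fatty acid synthesis. It read 13.32, 13.11, 13.24 and 13.15 in tumour lines against 13.53, 13.60 and 13.52 in parental cells. A dim further probe set of Ndufab1 differed by -1.41, from values of 5.33 to 5.53 in tumour lines and 6.71 to 6.96 on parental arrays, whereas 3 others were not called. Without its _s_at probe set the call of Ndufab1 was lost (adjusted p = 0.326). The other genes of this arm, Ndufa8, Ndufa13, Ndufb1, Ndufb3, Ndufb5, Ndufb6, Ndufb7, Ndufb8, Ndufb9, Ndufb10, Ndufc1 and Ndufc2, differed by -0.24 to 0.17 without a call.

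Complex II is the only complex with all subunits encoded in the nucleus, and it also acts in the citric acid cycle. Of its 4 genes 0 rose and 2 fell. Sdha, the flavin subunit that oxidises succinate, read 11.09, 11.20, 10.91 and 11.14 in tumour lines, 11.40 in the library labelled GFP-transfected and 11.78, 11.77 and 11.75 in parental cells. The fall of 0.68 (difference -0.68, SE 0.08, 1.61-fold) had the smallest adjusted p of the members, 0.000292. Sdhc, a membrane anchor, read 11.06, 11.16, 10.93 and 10.85 in tumour lines against 11.46, 11.40 and 11.41 in parental cells (-0.43, SE 0.09, adjusted p = 0.0048). The iron-sulphur subunit Sdhb averaged 12.39 ± 0.09 in 4 tumour lines and 12.56 ± 0.03 in 3 parental arrays (SD) and the other anchor Sdhd 11.98 ± 0.09 and 11.95 ± 0.03, and neither was called (-0.17 and 0.03).

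In complex III, 0 of 10 genes, cytochrome c included, rose and 4 fell. Uqcrc2 and Uqcrc1, the core proteins on the matrix side, which in mammals hold no redox centre, fell most. Uqcrc2 read 12.31, 12.12, 12.24 and 11.98 in tumour lines, 12.65 in the library labelled GFP-transfected and 12.74, 12.71 and 12.76 in parental cells (-0.58, SE 0.09, adjusted p = 0.0012). Uqcrc1 read 12.04, 11.92, 12.02 and 12.16 in tumour lines, 12.38 in the library labelled GFP-transfected and 12.55, 12.54 and 12.54 in parental cells (-0.51, SE 0.07, adjusted p = 0.000845). The Rieske iron-sulphur protein gene Uqcrfs1 fell by 0.38 (SE 0.08) and the small subunit gene Uqcr11 by 0.31 (SE 0.09, adjusted p = 0.0282). The fall of Uqcr11 was lost in 6 of the 7 fits that left out 1 array (all but that without tumour line 3, highest adjusted p 0.0969). Cyc1, which encodes the haem protein cytochrome c1, averaged 12.61 ± 0.18 in 4 tumour lines and 12.86 ± 0.01 on 3 parental arrays (SD) and did not pass the test (-0.25, adjusted p = 0.098). Cytochrome c itself, Cycs, averaged 13.68 ± 0.03 and 13.61 ± 0.05 (0.07) and was not called, but another bright probe set of Cycs was called higher. That probe set read 12.51, 12.33, 12.47 and 12.40 in tumour lines, 12.63 in the library labelled GFP-transfected and 12.15, 12.15 and 12.08 in parental cells (tumour lines against parental cells 0.30, SE 0.07, adjusted p = 0.012). The difference of the library labelled GFP-transfected from parental cells was 0.50 (SE 0.11, adjusted p = 0.017). In this complex, the small subunits Uqcrb, Uqcrh, Uqcr10 and Uqcrq differed by 0.11 to 0.18 without a call.

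In complex IV, 3 of 19 genes rose and 1 fell, with a median difference of 0.05, which turned to -0.06 over its 12 genes above the median level. Cox6c, a small regulatory subunit, read 13.78, 13.70, 13.57 and 13.59 in the tumour lines, 13.14 in the library labelled GFP-transfected and 13.34, 13.36 and 13.33 in parental cells (0.31, SE 0.07, adjusted p = 0.0098). Both probe sets of Cox6c were called higher when each probe set was tested singly. Cox5b, which binds zinc, fell by 0.25 (SE 0.08, adjusted p = 0.0387), a call lost in every fit that left out 1 array except that without tumour line 4 (highest adjusted p 0.108). The main structural subunits Cox4i1 (-0.18), Cox5a (-0.12), Cox6b1 (-0.08), Cox7a2 (-0.02) and Cox6a1 (0.14) were not called, nor was Ndufa4 (0.15), once counted with complex I and now with complex IV. Cox7c read 7.74, 7.73, 7.60 and 7.41 in tumour lines and 7.43, 7.20 and 7.21 in parental cells (0.34, SE 0.10, adjusted p = 0.0317). Its probe set averaged 7.55 over all arrays, near the median level of all genes (7.46). The groups overlapped. The call was lost without parental array 2 or 3 or tumour line 3, 4 or 5, (highest adjusted p of these 0.115), and when the _s_at probe set was left out (adjusted p = 0.697).

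Of the 8 tissue isoforms of complex IV, Cox8c alone was above the median level of all genes. Cox6a2, Cox7a1 and Cox8b (heart and skeletal muscle), Cox4i2 (lung), Cox6b2, Cox7b2 and Cox8c (testis) and Ndufa4l2 (induced by hypoxia) read between 4.01 and 8.62 over all 8 arrays. Of these 8 genes only Ndufa4l2 was called. It averaged 7.41 ± 0.08 in 4 tumour lines, stood at 7.14 in the library labelled GFP-transfected and averaged 7.08 ± 0.11 on 3 parental arrays (SD; 0.34, SE 0.08, adjusted p = 0.0097). Cox7a1 ran from 4.57 to 5.11 in tumour lines and from 4.20 to 4.69 in parental cells, and its difference of 0.35 did not pass the test (adjusted p = 0.113). Levels of different probe sets cannot be set against each other, so these values say how far a gene lies from the floor and not how isoforms share the complex.

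Complex V makes ATP in its F1 head, which a peripheral stalk holds in place while a ring of c subunits turns the central stalk inside it. Of 17 genes 1 rose and 5 fell. The falls took in 4 of the 5 genes of the F1 head. Atp5b, the catalytic beta subunit, read 13.15, 12.97, 13.08 and 13.05 in tumour lines, 13.35 in the library labelled GFP-transfected and 13.56, 13.52 and 13.55 in parental cells (-0.48, SE 0.07, adjusted p = 0.000656). Atp5a1, the alpha subunit, read 12.99, 12.59, 12.76 and 12.79 in tumour lines, 13.16 in the library labelled GFP-transfected and 13.28, 13.28 and 13.29 in parental cells (-0.50, SE 0.09, adjusted p = 0.0034). The subunits of the central stalk in the head fell by less, Atp5d by 0.41 (SE 0.07, adjusted p = 0.0018) and Atp5c1 by 0.22 (SE 0.07, adjusted p = 0.0448). The call of Atp5c1 was lost in every fit that left out 1 array except that without tumour line 3 (highest adjusted p 0.123). Atp5e, the remaining head subunit, differed by 0.07.

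Of the 3 genes for the same mature subunit c, Atp5g3 fell (-0.37, SE 0.06, adjusted p = 0.002) and Atp5g1 and Atp5g2 were not called (0.15 and -0.01). Atp5g3 read 13.54, 13.58, 13.48 and 13.57 in tumour lines, 13.80 in the library labelled GFP-transfected and 13.89, 13.96 and 13.90 in parental cells. Atp5h, the d subunit of the peripheral stalk, rose. It read 13.61, 13.59, 13.46 and 13.47 in tumour lines, 12.99 in the library labelled GFP-transfected and 13.17, 13.27 and 13.23 in parental cells (0.31, SE 0.07, adjusted p = 0.0089). All 4 lines were above all other arrays. The other stalk genes Atp5o (-0.12), Atp5pb (-0.14) and Atp5j (0.13) and the small membrane subunits Atp5k, Atp5l, Atp5j2, Atp5md and Atp5mpl (-0.06 to 0.17) were not called.

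**Figure D2:**
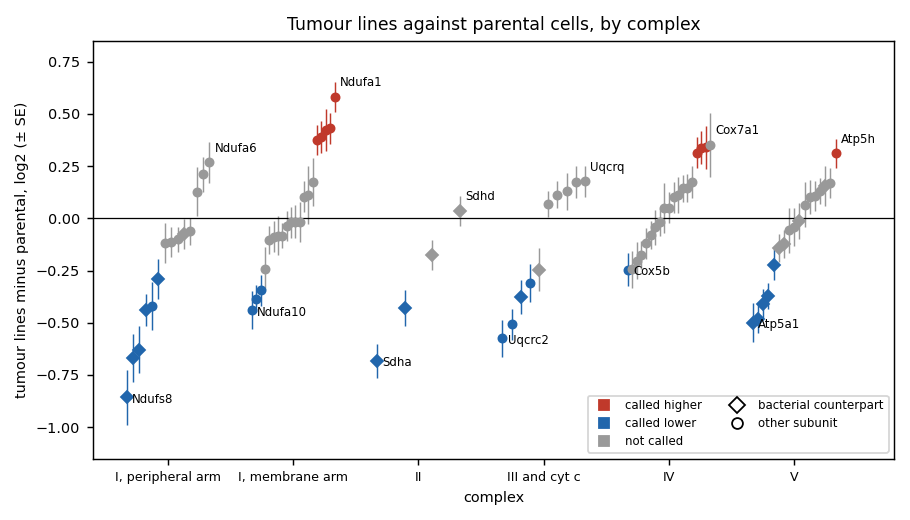
Difference between tumour lines and parental cells for each member (log2, y axis, bars ± SE from limma), by complex, with members ordered within each. Diamonds mark the 21 subunits counted as having a counterpart in bacterial enzymes, a division made after the values had been seen. Of these, 13 were called lower (blue) and 0 higher (red), where 19.4% and 16.6% of all genes were. The rises, such as Ndufa1 at 0.58, are among the circles.

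A division of the members by evolutionary origin was made after these values had been seen, and it carries no test. It replaced a narrower division, also made with the values in view, into 12 subunits that hold redox cofactors or catalytic sites and the rest; of those 12, 0 were called higher and 9 lower. Counted as having a counterpart in bacterial enzymes were 21 measured subunits. They are Ndufs1, Ndufs3, Ndufs7, Ndufs8, Ndufv1 and Ndufv2 of complex I, Sdha to Sdhd, and Uqcrfs1 and Cyc1 of complex III. From complex V they take in Atp5a1, Atp5b, Atp5c1, Atp5d, Atp5o, Atp5pb and Atp5g1 to Atp5g3. The other members were not searched for bacterial relatives, and some of them may have such relatives too. Of the 21, 0 were called higher and 13 lower, with a median difference of -0.37. Over all genes 16.6% were called higher and 19.4% lower, with a median of 0.01. The median of the 21 against the parental mean was -0.30, -0.27, -0.43 and -0.35 in tumour lines 3, 4, 5 and 6. In the library labelled GFP-transfected it was -0.17. Of the other 55 subunits, tissue isoforms left out, 8 were called higher and 8 lower, with a median of -0.02. The count of 8 lower became 5 without parental array 1, 2 or 3, and the count of 13 ran from 11 to 13 when arrays were left out. With that library counted among the parental arrays, 9 of the 21 were called lower.

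Genes with several probe sets gave a check on the single probe set used. Tested singly, 19 of the 174 probe sets were called higher and 42 lower. Beside the called genes there were 26 further probe sets above the median level, of which 25 had the same sign and 20 were called the same way. All 6 probe sets of Ndufs8 were called lower. Conversely, 6 members that were not called had a further probe set that was, higher for Cycs, Cox6a1 (0.35, adjusted p = 0.0061) and Atp5g1 (0.30, adjusted p = 0.0166) and lower for Atp5pb (-0.30, adjusted p = 0.044), Cox8a (-0.27, adjusted p = 0.0416) and Ndufa12 (-0.26, adjusted p = 0.0383). The further probe set of Atp5g1 was dim. The same held for 3 members in the library labelled GFP-transfected against parental cells and for 8 in tumour lines against that library. Among these 8, of which 3 were higher and 5 lower in the lines, were bright probe sets of Atp5a1 (-0.66) and Sdha (-0.59). On them that library read 13.33 and 11.35, and the parental arrays 13.29 to 13.33 and 11.41 to 11.51. Ndufa3 and Ndufs4 had probe sets called in opposite directions: a dim probe set of Ndufa3 read 6.98, 6.35, 6.17 and 6.57 in tumour lines against 5.84, 5.51 and 5.61 in parental cells, and one of Ndufs4 read 6.25, 6.38, 6.65 and 6.30 against 5.33, 5.53 and 5.56. With the mean of the probe sets, the differences of these genes were 0.03 and 0.12 and were not called. Which part of the transcript each probe set binds was not analysed here.

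Promoters of members that changed in either direction are shown because nuclear respiratory factor 1, NRF1, is known to bind many genes of this kind, and because MYC proteins bind the E-box. The 4 genes were picked after the search because they hold matches; Ndufs8, Ndufa1, Ndufb11, Uqcrc1 and Atp5b, which were looked at first, hold none of the searched letters in this window. Sequences are the 250 bases before the annotated start from RefSeq (GRCm38.p6), all from genes on the minus strand, written 5' to 3' of the gene, and 68 of the 84 members were matched. Searched on both strands were the NRF1 letters GCGCA followed by any base and GCGC, the GABPA or ETS letters CCGGAAG, the YY1 letters AAGATGGCG and the E-box CACGTG, and capitals mark any match. The Sdha sequence lies at chr13:74350241-74350490, that of Atp5h at chr11:115419920-115420169, that of Ndufs5 at chr4:123718187-123718436 and that of Ndufv1 at chr19:4012756-4013005.
Sdha: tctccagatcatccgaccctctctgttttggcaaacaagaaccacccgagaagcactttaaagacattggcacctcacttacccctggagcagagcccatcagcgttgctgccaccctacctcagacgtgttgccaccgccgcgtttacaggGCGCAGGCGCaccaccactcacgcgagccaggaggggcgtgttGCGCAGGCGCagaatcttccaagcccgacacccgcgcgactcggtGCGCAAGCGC
Atp5h: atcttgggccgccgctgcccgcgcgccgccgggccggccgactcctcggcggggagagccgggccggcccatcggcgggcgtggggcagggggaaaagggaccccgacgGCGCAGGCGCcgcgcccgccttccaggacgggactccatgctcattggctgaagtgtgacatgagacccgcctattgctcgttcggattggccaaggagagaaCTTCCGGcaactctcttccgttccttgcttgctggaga
Ndufs5: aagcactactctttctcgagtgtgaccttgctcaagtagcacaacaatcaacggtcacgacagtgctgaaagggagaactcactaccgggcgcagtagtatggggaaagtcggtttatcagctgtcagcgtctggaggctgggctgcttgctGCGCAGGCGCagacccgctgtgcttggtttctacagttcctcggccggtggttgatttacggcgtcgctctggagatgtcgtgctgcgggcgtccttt
Ndufv1: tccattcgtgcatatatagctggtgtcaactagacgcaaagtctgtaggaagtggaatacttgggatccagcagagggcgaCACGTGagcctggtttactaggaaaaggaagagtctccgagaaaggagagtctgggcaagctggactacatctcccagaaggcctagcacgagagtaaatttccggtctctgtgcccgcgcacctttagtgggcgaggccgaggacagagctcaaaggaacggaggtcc
Sdha, which fell, holds 3 matches to the NRF1 letters, and Atp5h and Ndufs5, which rose, hold 1 each. Atp5h also has 1 match to the GABPA letters, read on the opposite strand, and Ndufv1, which fell, holds 1 E-box.

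Across the members, the NRF1 letters were found before 11 of 68 genes (16.2%), against 4.23% of all 27025 genes in the promoter table. They stood before 3 of 7 genes that rose, 2 of 17 that fell and 6 of 44 that were not called. The GABPA letters were found before 12 members (17.6%, against 7.83% of all), the E-box before 6 (8.82%, against 6.86%) and the YY1 letters before 1 (1.47%, against 0.71%). None of the 7 matched members that rose held an E-box. Each motif was searched on its own, so that a stretch could count for more than 1 motif where their end letters are shared. A match describes the sequence only.

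The library labelled GFP-transfected was lower than all 3 parental arrays for 62 of the 84 members and higher than all for 10, where 35.3% and 35.9% of all genes were below and above. Few of these differences passed the test with a single array: 5 members were called lower and 1 higher, against 8.66% and 7.43% of all genes (16.1% in all). No member was called with a change of at least 2-fold, where 5.75% of all genes were. The member median was -0.12, and that of all genes -0.002. Ndufv3, an accessory subunit beside the flavin site, read 10.41 in that library against 11.05, 11.11 and 11.11 in parental cells (-0.68, SE 0.13, adjusted p = 0.0082). Ndufa7 read 12.51 against 13.12, 13.07 and 13.04 (-0.57, SE 0.10, adjusted p = 0.0063). In the tumour lines Ndufv3 lay above the parental arrays and Ndufa7 overlapped with them.

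Ndufs3 (-0.42), Ndufa13 (-0.39) and Ndufv2 (-0.39) were called lower too, with adjusted p-values between 0.0437 and 0.0483. These calls were lost when arrays were centred on their medians, and the count of 5 lower members was 2 in that setting and without parental array 1, 2 or 3 or tumour line 3 or 6. Cox7c was the member called higher, at 8.12 in the library labelled GFP-transfected against 7.43, 7.20 and 7.21 in parental cells (0.84, SE 0.16, adjusted p = 0.0078). That probe set averaged 7.55 over all arrays, near the median level of all genes (7.46).

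Between tumour lines and the library labelled GFP-transfected, 10 members were higher and 7 lower in the lines, against 14.0% and 16.4% of all genes (30.3% in all). This comparison and the preceding ones share arrays, so their values are given side by side and not as independent results. The higher members were all accessory subunits or small stalk and head subunits: Ndufv3 (0.89, SE 0.12), Ndufb11 (0.76, SE 0.11), Ndufa1 (0.72, SE 0.11), Ndufa6 (0.62, SE 0.15), Ndufb2 (0.59, SE 0.11), Atp5e (0.58, SE 0.16), Atp5h (0.54, SE 0.10), Cox6c (0.52, SE 0.11), Ndufa7 (0.51, SE 0.10) and Cox6a1 (0.29, SE 0.09, a call lost in all 7 fits that left out 1 array). Ndufv3 read 11.19, 11.45, 11.20 and 11.36 in tumour lines and 10.41 in that library (adjusted p = 0.000808). The lower members were Uqcrfs1 (-0.54, SE 0.12), Ndufs1 (-0.54, SE 0.17), Cox7c (-0.50, SE 0.15), Uqcrc2 (-0.49, SE 0.13), Uqcrc1 (-0.34, SE 0.11), Atp5d (-0.33, SE 0.10) and Ndufa3 (-0.30, SE 0.10). Uqcrfs1 read 11.68, 11.82, 11.56 and 11.78 in tumour lines and 12.25 in the library labelled GFP-transfected (adjusted p = 0.0079). The count of 7 became 2 or 3 without any 1 of the parental arrays, and 3 and 4 without tumour lines 5 and 6.

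**Figure D3:**
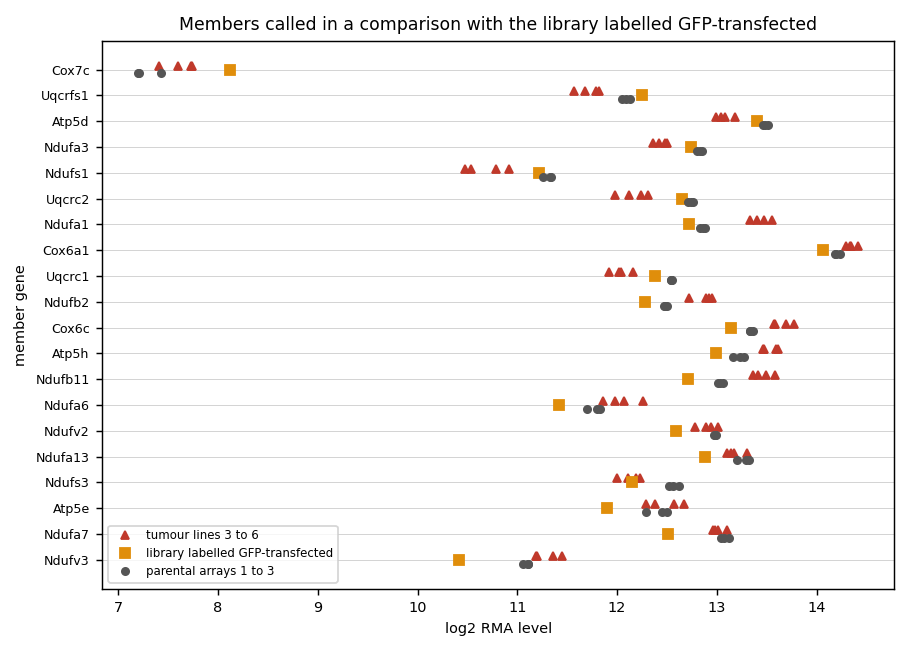
Log2 levels (x axis) of the 20 members called in a comparison with the library labelled GFP-transfected, with tumour lines as triangles, that library as a square and parental arrays as circles. Ndufv3 and Ndufa7 lie lower in that library than on any other array, and Ndufa1 and Ndufb11 lie higher in all 4 tumour lines than on the other arrays.

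The tumour lines differed among themselves more than the parental arrays did. The median SD of the members was 0.10 over 4 tumour lines and 0.03 over 3 parental arrays, where that of all genes was 0.13 and 0.08. The members with the largest SD among the lines were Ndufs8 (0.26), Ndufb1 (0.23), Cox7a1 (0.23), Ndufa5 (0.22) and Ndufv1 (0.21). Ndufa5 read 12.17, 12.28, 11.77 and 12.02 in lines 3, 4, 5 and 6 and 11.94, 11.94 and 11.92 in parental cells, so that it lay on both sides of the parental level. Line 3 was the highest of the 4 for 48 of the 84 members (57.1%), against 26.7% of the genes above the median level. Lines 5 and 6 were the lowest for 33 and 31 members (39.3% and 36.9%), against 27.7% and 21.3% of those genes.

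The levels of some members went with those of their chromosome in single lines, a pattern looked for after the values had been seen. All 5 members on chromosome 19 (Ndufs8, Ndufv1, Ndufb8, Cox8a and Atp5md, RefSeq GRCm38.p6) were lowest in tumour line 5. Their median against the parental mean was -0.15, -0.18, -0.51 and -0.21 in lines 3, 4, 5 and 6. The 311 chromosome 19 genes above the median level had medians of -0.13, -0.20, -0.50 and -0.21 in the same lines and 0.05 in the library labelled GFP-transfected. Ndufs8 and Ndufv1, the genes of complex I that fell most, are close neighbours there, with 6 analysed genes between them. Their falls exceeded the chromosome's median in every line, with Ndufs8 at 12.67 in line 3 against a parental lowest value of 13.27.

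Tumour line 4 had a chromosome 12 median of -0.54 over 330 genes, against -0.15, -0.11 and -0.15 in lines 3, 5 and 6. On that chromosome Ndufb1 read 8.46 in line 4 and 9.01, 8.87 and 8.76 in lines 3, 5 and 6, and Atp5mpl read 12.48 against 12.86, 12.72 and 12.69. Cox8c, the remaining member there, was not lowest in line 4. It read 8.50 in that line and 8.49, 8.53 and 8.34 in lines 3, 5 and 6. Line 3 had a chromosome 15 median of 0.26 over 361 genes, against 0.03, 0.12 and 0.10 in lines 4, 5 and 6, and all 5 members there (Atp5g2, Cox6c, Cyc1, Ndufa6 and Ndufb9) were highest in line 3, as were 48 of all 84 members. Without the members on chromosomes 12, 15 and 19, 8 of 71 rose and 19 fell, and line 3 was still the highest for 36 of the 71. Lines 5 and 6 were still the lowest for 27 and 28 of the 71 (38.0% and 39.4%). Other chromosomes were not left out. On chromosome 2, line 5 had a median of -0.40, against -0.26, -0.15 and -0.21 in lines 3, 4 and 6. There 5 of 6 members were lowest in line 5. On chromosome 4, all 4 members were lowest in line 6, whose median of 0.02 was not the lowest (-0.03 in line 4). Whether the order of the lines follows that of the chromosomes was not tested. Copy number was not measured here.

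**Figure D4:**
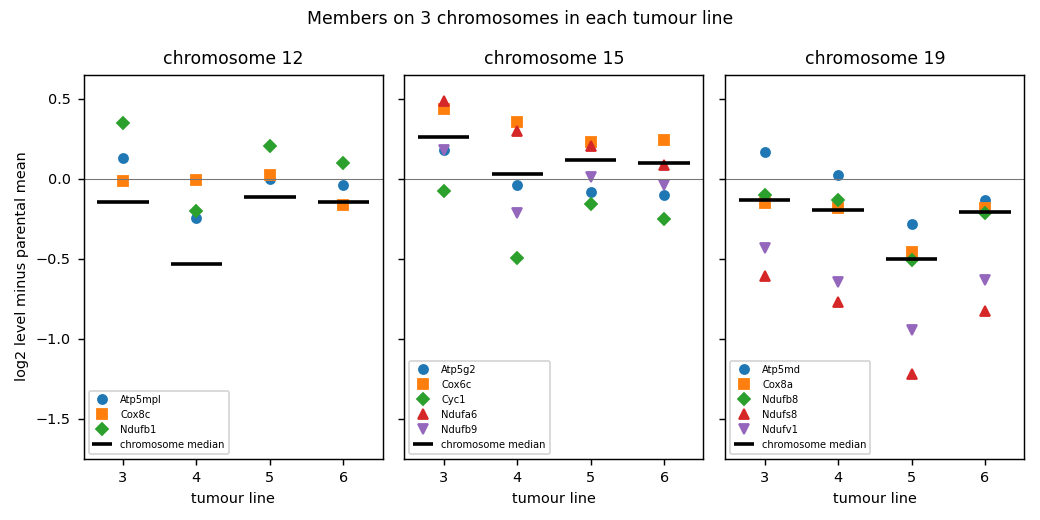
Members on chromosomes 12, 15 and 19 in tumour lines 3 to 6 (x axis), each as its log2 value minus the parental mean (y axis), with a bar for the median of all genes of the chromosome above the median level. On chromosome 19 the bar is at -0.50 in line 5 and all 5 members have their lowest value there; on chromosome 12 the bar is at -0.54 in line 4.

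Lists of genes that work beside the subunits held single genes with differences beyond those of the members. Among 16 regulators of mitochondrial biogenesis, 0 rose and 8 fell in tumour lines against parental cells, with a median of -0.34. Ppargc1b, a coactivator of mitochondrial gene expression, fell most and read 6.49, 5.77, 6.26 and 5.98 in tumour lines, 9.33 in the library labelled GFP-transfected and 8.40, 8.39 and 8.32 in parental cells (-2.25, SE 0.16, adjusted p = 1.64e-05). The library labelled GFP-transfected lay above the parental arrays (0.96, adjusted p = 0.029). Twnk, the helicase of mitochondrial DNA (-1.06, SE 0.12), and Gabpb1, the partner of GABPA (-0.79, SE 0.16), fell as well, and the mitochondrial DNA packaging factor Tfam fell by 0.33 (SE 0.07). Ppargc1a, the best known coactivator of this family, averaged 4.62 in tumour lines and 4.60 in parental cells, close to the floor, and Nrf1 (-0.18) and Esrra (0.04) were not called.

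Of 13 measured enzymes of the citric acid cycle 1 rose and 7 fell, with a median of -0.46. Idh3g, a subunit of the NAD-linked isocitrate dehydrogenase, rose and read 13.23, 13.29, 13.28 and 13.17 in tumour lines against 12.24, 12.30 and 12.17 in parental cells (1.0, SE 0.07, adjusted p = 1.27e-05). Idh2, the NADP-linked mitochondrial enzyme (-0.96, SE 0.18), Dld (-0.58, SE 0.10) and citrate synthase, Cs (-0.57, SE 0.07), fell. Cs did not overlap between the groups, at 12.20 to 12.41 in tumour lines and 12.82 to 12.90 in parental cells.

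The 40 assembly factors went both ways, 9 higher and 5 lower, with a median of 0.04. Nubpl, which delivers iron-sulphur clusters to complex I, fell by 1.30 (SE 0.19), and Cox15, which makes haem a for complex IV, by 1.27 (SE 0.12). Sco2, a copper chaperone of complex IV, rose by 1.10 (SE 0.10), and the library labelled GFP-transfected exceeded parental cells by 0.78 (adjusted p = 0.0108). Of 23 import genes of the Tomm and Timm families 3 rose and 6 fell (median -0.10), with Tomm34 at -0.88 (SE 0.09) and the translocase subunit gene Timm17b at 0.83 (SE 0.07). Of 76 genes for mitochondrial ribosomal proteins 20 rose and 20 fell (median -0.01), with Mrpl23 (-1.28, SE 0.13), Mrpl36 (-1.06, SE 0.18) and Mrps5 (-1.05, SE 0.14) moving most. Among 9 genes of supercomplexes and cristae 2 rose and 3 fell, and Chchd6, of the complex that shapes cristae, fell by 1.10 (SE 0.15). Cox7a2l, which joins complexes III and IV and is counted among the members, was not called (-0.20, adjusted p = 0.116). All these shares can be set beside the 16.6% of genes called higher and 19.4% called lower.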

How the data were processed

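RNA from 8 samples was measured on 8 Affymetrix arrays. The authors deposited 1 log2 value per probe set and array. The submitters' processing notes give RMA and Partek as tools. RMA subtracts background, brings the arrays to 1 distribution and summarises probes, which shrinks differences of dim genes and removes changes in total RNA. The number of arrays limits the precision.

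Of 45101 probe sets 34945 carried 1 symbol, 932 several and 9160 none, and 64 were controls. Each of 18193 genes took its probe set of highest mean over all arrays. For 22 of the 84 members this was of the _x_at or _s_at kind, which can bind several transcripts, so that close copies cannot be told apart. Limma (version 3.58.1, R 4.3.3) fitted 1 coefficient per group (lmFit, eBayes, two-sided, Benjamini-Hochberg over all genes), with calls at an adjusted p under 0.05. The single array labelled GFP-transfected was given the spread of the other groups. The fit was checked on simulated data with 18193 genes, of which 100 differed by 1 and 100 by 0.5 on the log2 scale. For tumour lines against parental cells it found 88% and 41% of these. Far fewer genes changed there than were called in the data (36.0%), which makes the adjusted threshold stricter. The changed genes were drawn from all genes, whose median SDs were larger than those of the members. The share of the members' differences that would be missed therefore cannot be read from it.

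The members and lists were chosen with earlier results of these data known. Named genes were, per complex, up to 4 called rises and falls, all genes of complex II and cytochrome c, tissue isoforms and subunit c genes, members called against the single array, those of largest SD among tumour lines, those whose probe sets disagree, and up to 3 of each other list; others are named to account for every member. Alternatives were averaged probe sets per gene, each probe set singly, no _x_at or _s_at probe sets, genes above the median level, repeated quantile normalization, centred arrays, a trended and robust prior, array weights, other uses of the single array, and each array left out.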

Additional observations from a re-analysis of the deposited data

Results flagged for a closer look

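Each of the 84 members was examined for a tumour line whose gap to the nearest of the other lines took up more of the range of the 4 than Dixon's critical value allows, and 2 were found. Chance alone gives such a gap in about 1 of 20 groups. For Cox8a, tumour line 5 read 12.43 and the other lines 12.70 to 12.73. Cox8a is among the chromosome 19 members that were lowest in that line. For Sdhb, tumour line 6 read 12.25 and the other lines 12.43 (lowest and highest alike to 2 decimals).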

How the results depend on the processing

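For tumour lines against parental cells, the members called higher ranged from 7 to 13 and those called lower from 15 to 23 over all alternatives, and 19 of the 30 calls held in each alternative run. Leaving out each array gave 8 to 10 higher and 16 to 20 lower. The lost calls were Atp5c1, Cox5b, Cox7c, Ndufs7, Uqcr11, Ndufs4, Ndufb4, Ndufab1, Ndufa3, Ndufs3 and Sdhc. With probe sets averaged per gene, the direction of Ndufa3 (0.026) and Ndufs4 (0.12) turned without a call, through their dim probe sets. Without _x_at and _s_at probe sets, Uqcrq was read by another probe set and was called higher in the library labelled GFP-transfected (0.37, adjusted p = 0.0424). That probe set was dim, at a mean of 6.26 over all arrays, below the median level of all genes (7.46). The probe set of Uqcrq used elsewhere averaged 12.80 and differed by -0.10 in that library against parental cells. Comparisons with the library labelled GFP-transfected moved most. Its members called lower against parental cells, 5, became 8 among genes above the median level, with repeated quantile normalization and with a trended and robust prior, 10 with array weights, 2 with centred arrays and with each probe set tested singly, and 2 to 6 with arrays left out. Its members called higher, 1, became 2 with the mean of probe sets and without _x_at and _s_at probe sets. For tumour lines against that library, the 10 higher members became 17 with the trended and robust prior, and the 7 lower became 12 with that prior, 11 among genes above the median level and 2 to 10 with arrays left out. The 8 lower subunits not counted as having a bacterial counterpart became 5 with the mean of probe sets and 5 to 8 with arrays left out. The median of complex IV, 0.05, became 0.089 with averaged probe sets, 0.086 with array weights, -0.062 among genes above the median level, which leaves 12 of its 19 genes, and 0.0099 to 0.12 with arrays left out. Over the whole table, each probe set tested singly gave 11843, 5015 and 10117 calls out of 34945 probe sets, against 6547, 2927 and 5514 out of 18193 genes, since more features were tested. The cause of the other changes was not tested. The division of the members by bacterial counterparts and the count without chromosomes 12, 15 and 19 (8 higher and 19 lower of 71) were chosen after seeing the data. No paired analysis was possible because no label pairs a sample of 1 group with a sample of another.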
